A study of Homo sapiens with 2 samples.

Results

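The cadherins and mesenchymal transcription factors described here are 10 genes, CDH1, CDH2, CDH6, CDH11, VIM, ZEB1, ZEB2, SNAI2, TWIST1 and PRRX1. They were taken by name, and every probe set that the platform annotation pairs with exactly 1 of these symbols was kept, which gave 30 of the 54613 probe sets. Total RNA was measured on 2 biotin-labelled Affymetrix expression arrays, 1 of 786-VHL cells and 1 of 786-O cells. 786-O is a human clear-cell renal carcinoma line with a mutated VHL allele, and 786-VHL was derived from it and holds a functional allele, so both share the 786-O background. Not given in the sources used here were how the allele was introduced, whether 786-VHL is a clone or a pool, and whether 786-O carried an empty vector. The labels name no treatment.

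Cadherins are calcium-dependent adhesion proteins that join neighbouring cells and bind catenins inside the cell. Epithelial cells rely on E-cadherin, the product of CDH1, and in epithelial-mesenchymal transition the zinc-finger repressors of the ZEB and SNAI families silence CDH1 through E-box motifs while N-cadherin (CDH2) and the filament protein vimentin (VIM) become prominent. VHL is the substrate-recognition part of the ubiquitin ligase through which cells with oxygen degrade HIF alpha proteins, and its loss is a defining event of clear-cell renal carcinoma. The study asked which genes behave differently once VHL function is present.

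Each array gave 1 intensity, in arbitrary units, per probe set. Differences are log2(786-VHL + 16) minus log2(786-O + 16), and positive values are higher on the 786-VHL array. Folds use the same scale, on which the differences of dim probe sets are understated. A probe set was called above the floor where its higher value passed the pooled median of all values, 22.3. Of the probe sets of a gene, the one with the highest mean log2 level stood for it, and is called its representing probe set. The gene was called measured where that probe set was above the floor. Since each line had 1 array, there was no replicate, no test and no error between cultures, which limits the precision throughout. The only spread available was that between probe sets of the same gene, whose SD was 0.33 log2 units over 6436 genes with several above the floor. VHL did not check the labels, since its probe sets read 15.96 and 7.96 in 786-VHL, against 28.9 and 6.32 in 786-O, and every direction below rests on the array labels.

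Of the 10 genes, 6 were measured, namely CDH2, CDH6, CDH11, VIM, ZEB1 and SNAI2. SNAI2 alone was at least 2-fold higher on the 786-VHL array, where 1.54% of the 13291 measured genes were, and no member was at least 2-fold lower, against 2.18% of measured genes. By probe set, 16 of 30 were above the floor, 2 of them at least 2-fold higher (1.42% of all 24414 single-gene probe sets above the floor were) and 0 at least 2-fold lower (2.70% were). The median difference was 0.06 over the 6 measured members and 0.05 over all measured genes, and -0.12 over the 16 probe sets and 0.04 over all 24414. The 14 probe sets below the floor on both arrays differed by at most 0.33 in either direction.

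**Figure D1:**
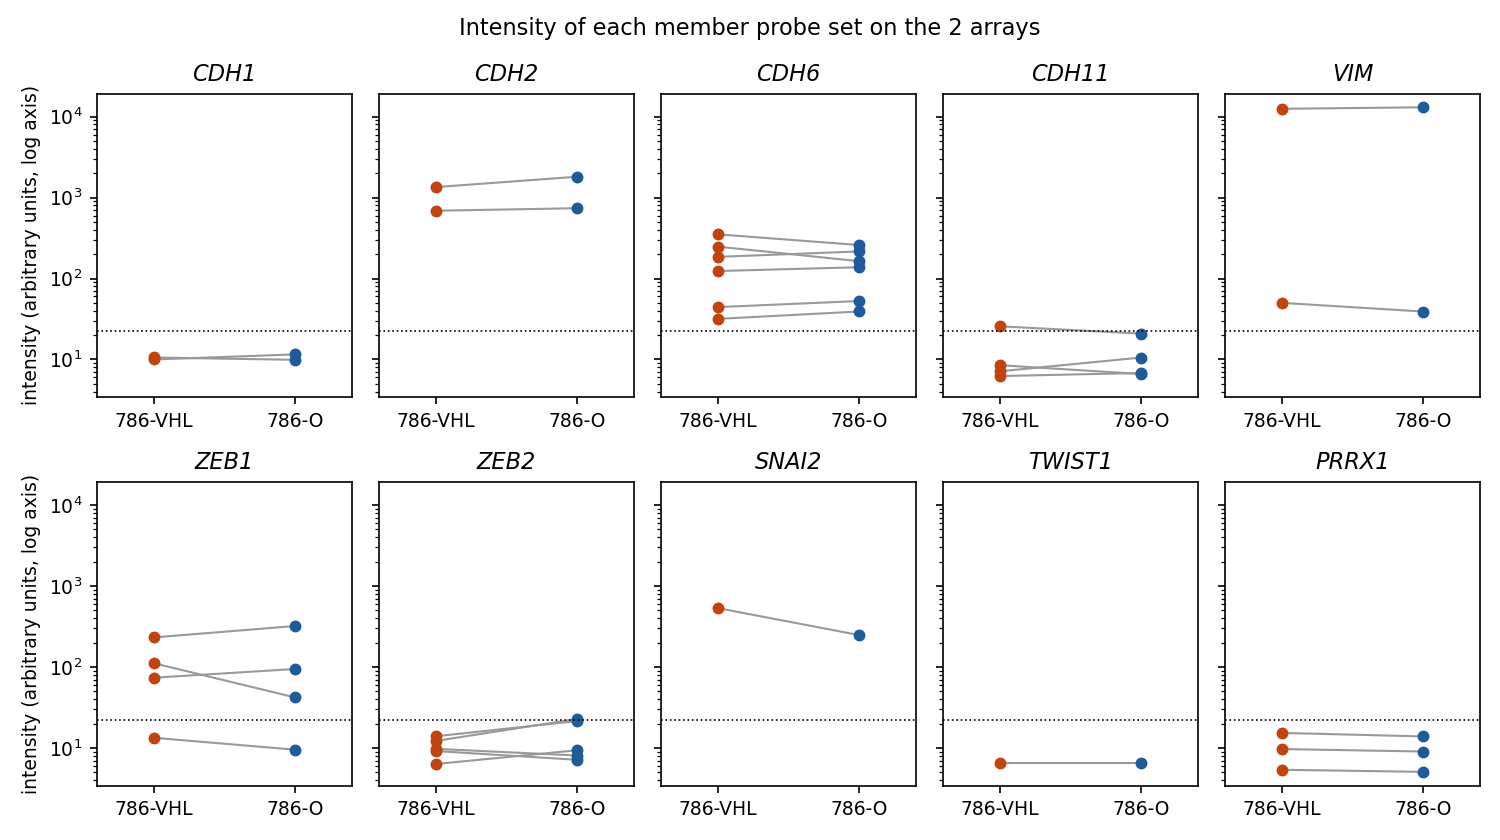
Intensity of all 30 probe sets of the 10 genes, 1 panel per gene, with the 786-VHL array on the left and the 786-O array on the right of each panel. The vertical axis is logarithmic in arbitrary units, each line joins a probe set's values on the 2 arrays, and the dotted line is the floor of 22.3. CDH1, TWIST1 and PRRX1 lie wholly below the floor, and SNAI2 is higher in 786-VHL, at 535 against 248.

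The cadherins divided into 2 above the floor on every probe set and 2 near or below it. CDH1, the epithelial cadherin, was below the floor on both arrays, with intensities of 10.0 and 10.6 on its 2 probe sets in 786-VHL and 11.6 and 9.90 in 786-O. Neither array gave a CDH1 signal from which a direction could be read. CDH11, a type II cadherin of mesenchymal cells, had 1 of 4 probe sets above the floor, at 25.7 in 786-VHL and 20.9 in 786-O, which is at least 1.09-fold higher with 786-O set at the floor. Its other 3 probe sets read 6.24 to 8.50 in 786-VHL and 6.61 to 10.6 in 786-O.

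CDH2 encodes N-cadherin, the cadherin of neural and mesenchymal cells that proximal tubule cells also carry. Its probe set 203440_at read 1347 in 786-VHL and 1809.5 in 786-O, a difference of -0.42, and 203441_s_at read 688 in 786-VHL and 739 in 786-O, a difference of -0.10. Both were lower on the 786-VHL array. The difference on 203440_at was the 1473rd lowest of 13291 measured genes, or within the lowest 11.1%. The gap between the 2 CDH2 probe sets, 0.32, was met or passed in 34.8% of the 3585 genes with 2 above the floor.

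CDH6 encodes K-cadherin, a type II cadherin of the developing and adult proximal tubule that renal carcinomas often express. All 6 of its probe sets were above the floor, and they fell on both sides of 0. The pair 210601_at and 210602_s_at were higher, with 248 and 351 in 786-VHL against 164 and 259 in 786-O, and differences of 0.55 and 0.42. The other 4 were lower, with 185, 44.4, 124 and 31.7 in 786-VHL against 216, 52.7, 138 and 39.2 in 786-O, and differences between -0.21 and -0.14. The 2 higher probe sets are the only ones of CDH6 to which the platform annotation gives the same sequence record. A shared record does not show that they read the same stretch of it.

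Within CDH6 the 2 probe sets of the shared sequence record lay 0.14 apart and the other 4 within 0.07 of each other, while 0.55 separated these groups. Over all genes, 602 pairs of probe sets of a gene with the same sequence record had a median gap of 0.17, and 12726 pairs with different ones had a median gap of 0.26. A range as wide as that of CDH6, 0.76, was met or passed in 46.7% of the 105 genes with 6 probe sets above the floor. The gene's direction therefore depended on the probe set, being 0.42 on the representing one and -0.16 over the median of all 6. Probe sets with both signs also occurred in 41.9% of the genes with several above the floor.

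VIM encodes vimentin, the intermediate filament protein of mesenchymal cells that is also common in clear-cell renal carcinoma. Its probe set 201426_s_at read 12498 in 786-VHL and 13034 in 786-O, a difference of -0.06. The other, 1555938_x_at, read 50.1 in 786-VHL and 39.1 in 786-O, a difference of 0.26, and its suffix marks probes that Affymetrix expected to bind other transcripts too. Both differences were smaller than the SD between probe sets.

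**Figure D2:**
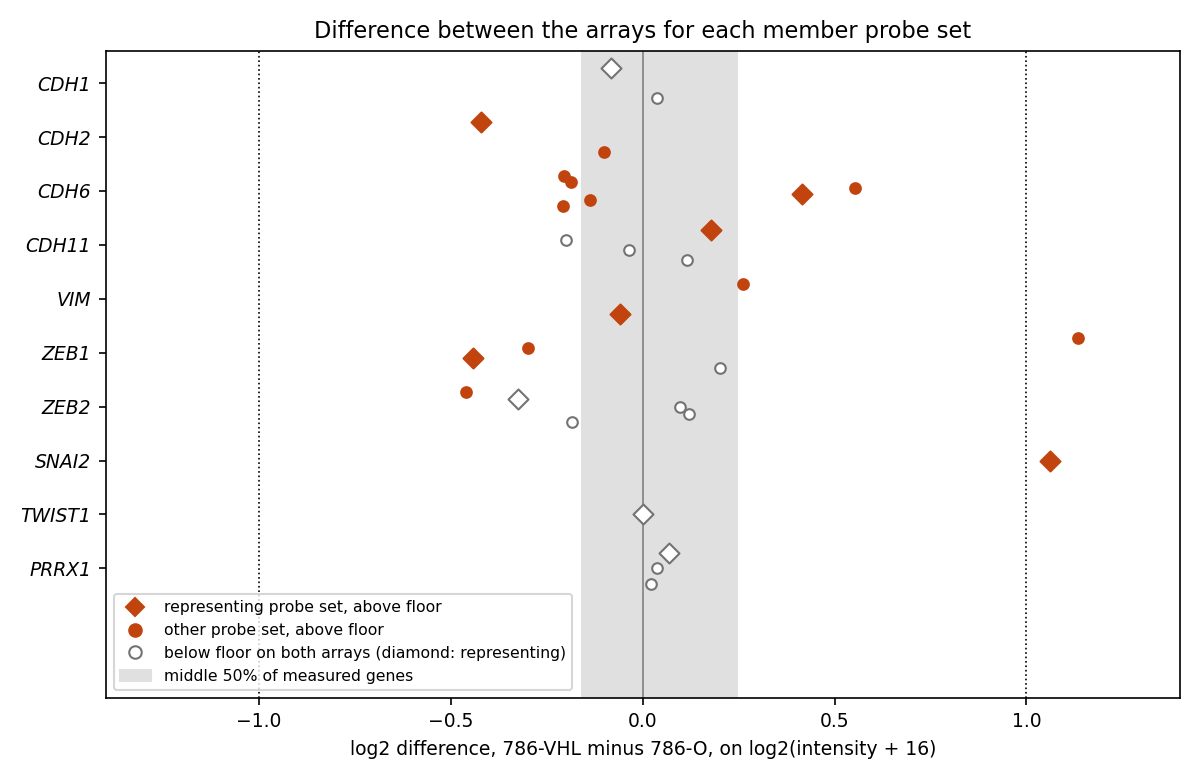
Log2 difference, 786-VHL minus 786-O, for each of the 30 probe sets, with genes down the page. Diamonds are the representing probe set of a gene, filled symbols lie above the floor on at least 1 array, the grey band holds the middle 50% of measured genes, and dotted lines mark 2-fold. SNAI2 at 1.06 and 1 ZEB1 probe set at 1.13 pass 2-fold, and CDH6 and ZEB1 have filled symbols on both sides of 0.

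SNAI2 encodes Slug, a zinc-finger repressor that acts in neural crest and in epithelial-mesenchymal transition. Its only probe set, 213139_at, read 535 in 786-VHL and 248 in 786-O. Both arrays were well above the floor, and the difference of 1.06, a 2.09-fold higher value, was the 165th highest of 13291 measured genes, or within the highest 1.24%. No other probe set of SNAI2 could be set beside it, and with a pseudocount of 64 the difference was 0.94, below 2-fold.

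ZEB1 encodes a zinc-finger homeobox repressor of CDH1, and its 3 probe sets above the floor went apart. Probe set 212764_at read 232 in 786-VHL and 321 in 786-O, a difference of -0.44, and 212758_s_at read 73.8 in 786-VHL and 94.6 in 786-O, a difference of -0.30. Both were lower on the 786-VHL array. Probe set 210875_s_at read 111 in 786-VHL and 42.1 in 786-O, a difference of 1.13 or 2.19-fold higher, and the fourth, 239952_at, was below the floor at 13.4 in 786-VHL and 9.53 in 786-O. The range of 1.58 over the 3 above the floor compares with a median range of 0.39 in the 1712 genes with 3 such probe sets, of which 1.64% had a range at least as wide. ZEB1 has no single direction in these data, its representing probe set being within the lowest 10.3% of measured genes and another at least 2-fold higher.

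**Figure D3:**
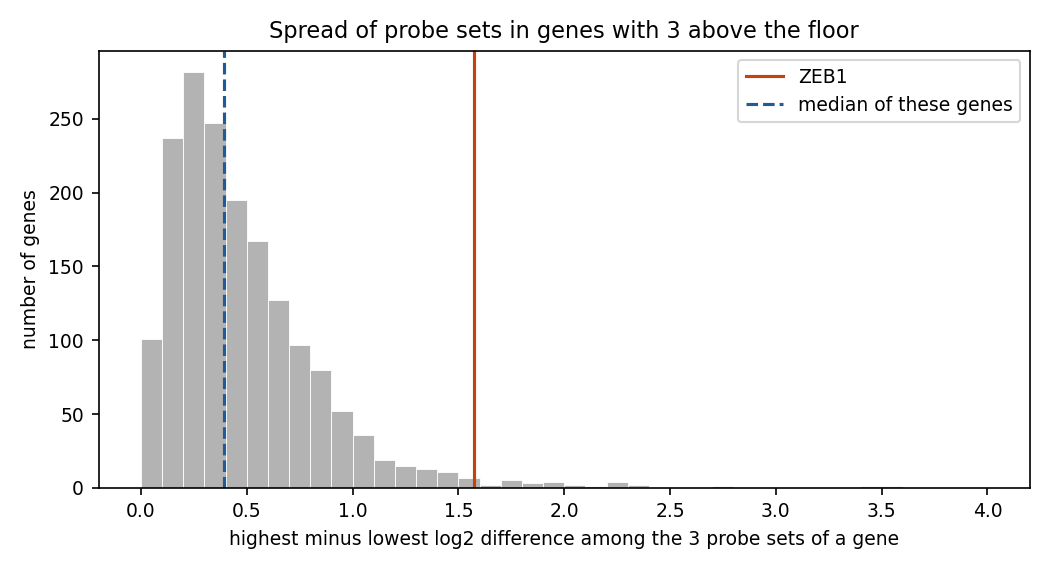
Histogram of the highest minus the lowest log2 difference among the 3 probe sets of a gene, over the 1712 genes with 3 above the floor. The solid line is ZEB1, at 1.58, and the dashed line the median of these genes, 0.39.

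RefSeq places ZEB1 behind several transcription starts, and the platform annotation does not tie its probe sets to any of them. The GRCh38.p14 promoter table holds 12 windows for 5 of the 10 genes (PRRX1, ZEB2, VIM, ZEB1 and CDH2), of which 7 belong to ZEB1. The 250 bases before each start were searched on both strands for the E-box that ZEB and SNAI proteins bind, CAGGTG or its complement CACCTG, and for the HIF core motif, ACGTG or GCGTG or their complements CACGT and CACGC. The E-box was found in 2 of the 7 ZEB1 windows and in none of the other 5, and in 17.5% of all 35116 windows in the table. A HIF core was found in 3 of the 7 ZEB1 windows, in 1 of 2 for CDH2, in the window of ZEB2 and in none for VIM and PRRX1, and in 43.2% of all windows. The ZEB2 window, which held 4 HIF cores, and the 3 ZEB1 windows with a HIF core are not shown. Whether a motif has any part in a difference was not tested. The ZEB1 windows with an E-box are shown because ZEB1 was the member whose probe sets went furthest apart, and the CDH2 window with a HIF core because both CDH2 probe sets were lower. They run 5′ to 3′ on the gene's strand, with the motifs in capitals, and a match is a description of the letters, not a site of binding.
ZEB1, chr10:31318167-31318416, plus strand: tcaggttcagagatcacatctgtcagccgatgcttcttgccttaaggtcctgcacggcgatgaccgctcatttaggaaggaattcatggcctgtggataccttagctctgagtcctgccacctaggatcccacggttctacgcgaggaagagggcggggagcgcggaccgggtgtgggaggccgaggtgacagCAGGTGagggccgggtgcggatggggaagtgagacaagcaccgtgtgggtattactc
ZEB1, chr10:31318966-31319215, plus strand: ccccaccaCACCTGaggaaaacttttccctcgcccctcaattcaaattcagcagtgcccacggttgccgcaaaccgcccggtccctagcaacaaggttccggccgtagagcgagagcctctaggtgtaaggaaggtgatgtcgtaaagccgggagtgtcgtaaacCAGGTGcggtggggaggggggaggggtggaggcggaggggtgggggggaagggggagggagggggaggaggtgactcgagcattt
CDH2, chr18:28177131-28177380, minus strand: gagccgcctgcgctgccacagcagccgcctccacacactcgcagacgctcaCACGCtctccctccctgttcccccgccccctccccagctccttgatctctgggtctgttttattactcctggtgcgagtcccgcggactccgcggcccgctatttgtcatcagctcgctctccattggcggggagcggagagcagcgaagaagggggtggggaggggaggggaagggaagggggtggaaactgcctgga

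ZEB2 encodes the related repressor, and its representing probe set was below the floor, at 14.0 in 786-VHL and 21.5 in 786-O. Another, 203603_s_at, passed the floor in 786-O only, at 12.2 in 786-VHL and 22.8 in 786-O, which is at least 1.01-fold lower. The other 3 ZEB2 probe sets lay between 6.34 and 9.75 in 786-VHL and between 7.15 and 9.38 in 786-O. TWIST1, a basic helix-loop-helix factor of mesoderm, had 1 probe set with the same value of 6.50 on both arrays. Values were exactly equal on both arrays for 2127 probe sets, 3.89% of the table. PRRX1, a paired-related homeobox factor of limb and craniofacial mesenchyme, was below the floor on all 3 probe sets, with 5.38 to 15.4 in 786-VHL and 5.07 to 13.9 in 786-O. A gene below the floor may still be transcribed at a level these probe sets do not register.

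Other factors of epithelial-mesenchymal transition were listed beside the members. Of 18 with a probe set 14 were measured, 10 of them higher, 3 lower and 1 equal on the 786-VHL array, none at least 2-fold on the representing probe set, with a median of 0.19. Over all measured genes the median was 0.05, and 1.54% were at least 2-fold higher and 2.18% at least 2-fold lower. These shares also stand beside the counts of the lists below. SNAI1, the close relative of SNAI2, read 66.6 in 786-VHL and 44.4 in 786-O, a difference of 0.45, and SNAI3 and TWIST2 were below the floor. ID2, an inhibitor of basic helix-loop-helix factors, differed by 0.78 and 0.56 on its 2 probe sets, and its relatives ID1 and ID3 differed by 0.63 and 0.43 on 1 probe set each. The 10 higher genes took in every ID gene of the list. Their count and the median of 0.19 therefore mix such inhibitors with the factors themselves. The TWIST partner genes TCF3, TCF4 and TCF12 differed by -0.31, -0.48 and 0.19 on their representing probe sets. Other probe sets above the floor went to the opposite side of 0 in each, from -0.76 to 0.41 for TCF3 and from -0.56 to 0.21 for TCF4, and at -0.30 for TCF12.

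ETS1, a transcription factor of invading and endothelial cells, was lower on all 3 of its probe sets. It read 923, 366 and 60.6 in 786-VHL, against 1681, 973 and 267 in 786-O, with differences of -0.85, -1.37 and -1.88, so 2 of the 3 passed 2-fold although the representing one did not. SOX4, a factor that acts downstream of TGF-beta signals, differed by 0.76 on its representing probe set and by -0.16 to 0.35 on 4 others above the floor. Among 13 measured corepressors of ZEB and SNAI proteins 10 were higher and 3 lower, none at least 2-fold, with a median of 0.18. The histone deacetylase gene HDAC1 differed by 0.70, the histone demethylase gene KDM1A by 0.44 and SIN3A, a scaffold for deacetylases, by 0.25, with its other probe sets at -0.01.

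The partners of cadherins at the junction were measured in 12 of 15 genes with a probe set, 5 higher and 7 lower on the 786-VHL array, none at least 2-fold on the representing probe set, with a median of -0.03. CTNNA1, which encodes the alpha-catenin that links cadherins to actin, read 2721 in 786-VHL and 2687 in 786-O. CTNNB1, which encodes beta-catenin, read 1304 in 786-VHL and 1316 in 786-O on its representing probe set, with 2 dim ones at 15.5 and 14.9 in 786-VHL against 60.1 and 34.8 in 786-O.

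NECTIN2, an immunoglobulin-type adhesion molecule of adherens junctions, was lower on all 4 of its probe sets. They read 118, 117, 50.9 and 57.4 in 786-VHL, against 223, 235, 183 and 170 in 786-O, with differences of -0.83, -0.92, -1.57 and -1.34. PKP4, an armadillo protein of junctions, differed by -0.44, with 3 other probe sets from -0.34 to -0.24, and NECTIN3 by 0.36 and -0.07. Of 16 other cadherins with a probe set, 10 were below the floor, among them the placental cadherin gene CDH3 at 17.5 in 786-VHL and 16.9 in 786-O. The 6 measured had a median of 0.05 and none was at least 2-fold apart. CDH17, an intestinal cadherin, was at least 1.39-fold higher, at 37.1 in 786-VHL against 15.7 in 786-O, below the floor. CDH24 differed by -0.33 with another probe set at 0.08, and the kidney-specific cadherin gene CDH16 by 0.10.

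Epithelial genes that ZEB and SNAI proteins are known to repress were measured in 15 of 21 genes with a probe set, 7 higher and 8 lower, none at least 2-fold, with a median of -0.01. EPCAM, an epithelial adhesion molecule, read 242 in 786-VHL and 171 in 786-O, a difference of 0.47. PKP3, a desmosomal plakophilin, differed by 0.39 on 1 probe set and by 0.00 on the other, and MAL2, a transcytosis protein, by 0.37. The epithelial splicing regulator ESRP1, the transcription factor genes GRHL2 and OVOL2, and OCLN, DSP and RAB25 were below the floor, as CDH1 was.

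Genes of the mesenchymal state were measured in 21 of 27 with a probe set, 10 higher and 11 lower, with a median of -0.01. None was at least 2-fold higher and 2 were at least 2-fold lower, against 2.18% of all measured genes. The 2 lower genes were TAGLN, an actin-binding protein gene, and LOX, a collagen cross-linking enzyme gene. The count of mesenchymal genes at least 2-fold apart in either direction was 3 with the intensity trend removed or a pseudocount of 1. It was 1 with a pseudocount of 64 or the floor at the 75th percentile. Without suffixed probe sets, which include all those of LOX, it was 0. TAGLN read 31.6 and 16.6 in 786-VHL against 508 and 250 in 786-O on 2 suffixed probe sets, and the 16.6 was below the floor. Its other probe set, without a suffix, read 82.0 in 786-VHL against 75.1 in 786-O, a difference of 0.10. LOX read 7.44, 8.49 and 8.80 in 786-VHL, each below the floor, against 74.0, 47.6 and 22.6 in 786-O, and was at least 2.35-fold lower on the first. AXL, a receptor tyrosine kinase, differed by 0.92 on its representing probe set and by -0.38 on the other. The matrix genes FN1 and SPARC, picked for mention once their values were known, had differences of -0.08 and -0.01 on their representing probe sets. The 5 other FN1 probe sets above the floor ran from -0.41 to 0.38, and the other of SPARC was at -0.29.

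**Figure D4:**
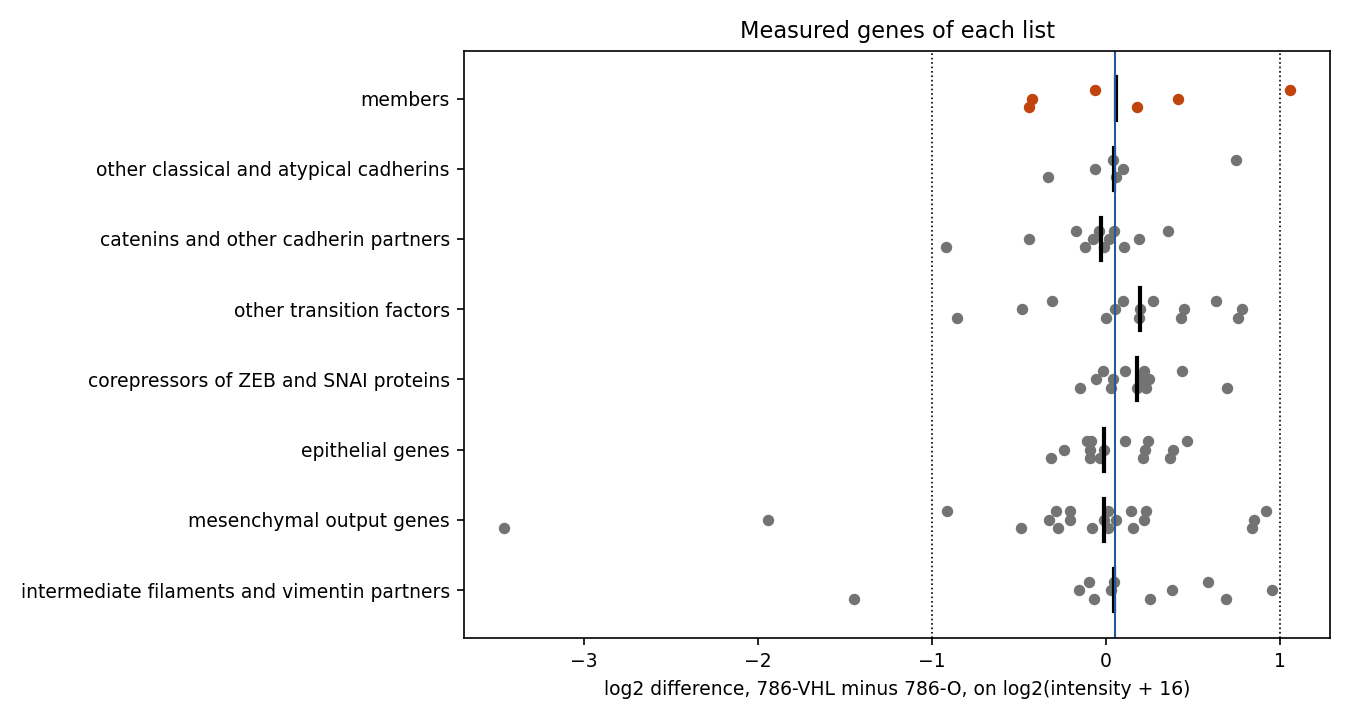
Log2 difference, 786-VHL minus 786-O, of the measured members and list genes, 1 point per gene on its representing probe set. The lists of kidney, endothelial, leukocyte, and fibroblast and pericyte markers are not drawn. Black bars are list medians, the vertical line is the median of all measured genes, 0.05, and dotted lines mark 2-fold. SNAI2 is the only member past 2-fold, and TAGLN and LOX lie furthest to the left.

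Both arrays carried the keratins of simple epithelia beside vimentin. KRT8 read 2116 in 786-VHL and 1771 in 786-O, and KRT18 read 4960.5 in 786-VHL and 5315 in 786-O. The renal lineage factor PAX8 was above the floor on all 8 of its probe sets and lower in 786-VHL on each, by 0.29 to 1.08, at 1068 in 786-VHL against 1521 in 786-O on the representing one, and PAX2 read 106 in 786-VHL and 102 in 786-O. LHX1, a factor of the embryonic kidney, read 35.3 in 786-VHL and 29.2 in 786-O. CUBN, LRP2 and AQP1, genes of the mature tubule, were below the floor. In bulk RNA fewer cells of a type and less RNA per cell cannot be told apart.

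Markers of other cell types were near or below the floor with few exceptions. Of 7 fibroblast and pericyte markers 3 were measured. LUM, a matrix proteoglycan gene, read 37.1 in 786-VHL and 5.64 in 786-O, below the floor, and was at least 1.39-fold higher. The collagen gene COL1A1 read 79.9 in 786-VHL and 94.8 in 786-O, and THY1, a surface glycoprotein gene, read 50.6 in 786-VHL and 41.3 in 786-O. PDGFRA, PDGFRB, DCN and COL3A1 were below the floor. The summed intensity of the 7 was 233 in 786-VHL and 198 in 786-O. Of 6 endothelial markers 3 were measured, TEK, PECAM1 and VWF at 26.7 to 28.9 in 786-VHL and 19.9 to 23.6 in 786-O, with CDH5, KDR and TIE1 below the floor and sums of 118 in 786-VHL and 101 in 786-O. Of 5 leukocyte markers LAPTM5 alone was measured, at 292 in 786-VHL against 25.9 in 786-O, a difference of 2.88. Its other probe set read 115 in 786-VHL and 27.8 in 786-O, a difference of 1.58. PTPRC read 12.1 in 786-VHL and 11.3 in 786-O, and the sums of the leukocyte markers were 349 in 786-VHL and 80.1 in 786-O. The part of these markers in the differences above was not tested.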

How the data were processed

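RNA was isolated with Trizol and labelled with biotin, per the labels' protocols. The authors deposited linear array intensities for both arrays, and the submitters' processing notes list R 2.10 as sole tool. How background, normalization and probe summary were handled was not given in the sources used here, and these steps can shrink or shift differences.

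Platform annotation gave 41091 probe sets with 1 gene, 1801 with several and 11721 unnamed here, and 41037 symbols were updated by Entrez number through RefSeq. Values were taken as log2(intensity + 16), with a floor at the pooled median. No test was possible with 1 array per line, so differences were described by size (at least 2-fold). Named genes were all members, each list gene at least 2-fold apart and the 3 of each list with the largest difference; ID1, ID3, SNAI1, SNAI3, TWIST2, TCF3, TCF4, TCF12, CTNNA1, CTNNB1, FN1, SPARC, CDH3, KRT8, KRT18, PAX2 and genes below the floor were named in addition, after their values were seen. The 10 members and 11 lists were chosen with earlier results of these data known. Alternatives were quantile normalization, removal of the intensity trend, pseudocounts of 1 and 64, other floors, the median over probe sets, leaving out probe sets named _s_at, _x_at or _a_at, and a 1.5-fold threshold. The procedure was tested on simulated data. Sequences are from RefSeq, GRCh38.p14. Python 3.11.15, numpy 2.4.6, pandas 2.3.3, statsmodels 0.14.6 and matplotlib 3.10.9 were used.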

Additional observations from a re-analysis of the deposited data

How the results depend on the processing

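No paired analysis was possible because 1 array was made per line, and no replicate could be left out. Of 44 alternative values of the measured members, 42 moved by less than the SD between probe sets, but some of these could not move. Another floor leaves a gene's difference as it is. Dropping suffixed probe sets left CDH2, ZEB1 and SNAI2 on the same representing probe set, and SNAI2 has only 1 probe set for a median. VIM counted among the 42 although its sign changed, with -0.06 on its representing probe set and a median of 0.10. Both values outside the 42 came with the median over probe sets, where CDH6 was at -0.16 and ZEB1 at -0.049. The ZEB1 value takes in a probe set below the floor, and over its 3 above the floor the median was -0.30. SNAI2 lay between 0.94 and 1.11, and with a pseudocount of 64, which shrinks differences, 0 members were at least 2-fold higher. No member was 2-fold lower under any of the 9 alternatives. VIM and CDH11 had no value without suffixed probe sets, nor CDH11 with the floor at the 75th percentile or over the median of probe sets.

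Among all measured genes, 110 were higher and 146 lower (256 in all) with a pseudocount of 64, 129 and 176 (305) over the median of probe sets, and 831 and 871 (1702) at 1.5-fold. With the trend removed 173 were higher and 324 lower. Of 83 alternative list medians 78 moved by less than the SD between probe sets. Except for the leukocyte markers, the list medians were themselves smaller than this SD, so a change of sign could pass as within it. The median of the epithelial genes, for example, ran from -0.06 to 0.13.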

Other observations

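Intermediate filament and lamina genes went apart on the 2 arrays. Of 11 measured, 7 were higher and 4 lower on the 786-VHL array, with a median of 0.04. LMNB1, which encodes lamin B1 of the nuclear lamina, was the only one at least 2-fold apart on its representing probe set (2.18% of measured genes were at least 2-fold lower), at 324 in 786-VHL against 911 in 786-O, a difference of -1.45 on its only probe set. LMNA, which encodes lamins A and C, was higher on all 5 of its probe sets above the floor, by 0.33 to 1.03, at 1302 in 786-VHL against 802 in 786-O on the representing one. The simple-epithelial keratin gene KRT19 read 930.1 in 786-VHL and 472 in 786-O, a difference of 0.96, with its other probe set below the floor. The filament linker gene PLEC, named after its values were seen, differed by 0.04 on its representing probe set and by -1.66 on the other.

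CD44, SPOCK1 and S100A4, genes of the mesenchymal list, also named after their values were seen, had differences close to 2-fold on their representing probe sets. CD44, a hyaluronan receptor, read 2449 in 786-VHL and 4623 in 786-O on its representing probe set, a difference of -0.91, and its 9 other probe sets above the floor ran from -0.58 to 0.27. SPOCK1, a secreted proteoglycan gene, read 409.7 in 786-VHL and 222 in 786-O, and S100A4, a calcium-binding protein gene, read 97.5 in 786-VHL and 47.0 in 786-O.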
